A study of Mus musculus with 9 samples.

Results

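The genes described here are the 9 core members of the pathway that carries a calcium signal from the T cell receptor to the nucleus: the transcription factors Nfatc1, Nfatc2 and Nfatc3, the calcium sensors Stim1 and Stim2, the channel gene Orai1, the calcineurin catalytic subunits Ppp3ca and Ppp3cb, and the calcineurin inhibitor Rcan1. They were chosen by symbol from a table of 24060 mouse genes, and all 9 had a level above the filter of 1 TPM, a length-corrected share of all transcripts in a library, that left 11330 genes for testing. The RNA came from 3 clones of CD8 T cells (R7-I, R7-II, R7-III), with 3 libraries per clone, each called a biological replicate by the labels. Each clone is carried by its own transnuclear mouse line, made by transfer of the nucleus of a single T cell, so that every mouse of a line carries the same rearranged T cell receptor. All lines were on a BALB/c background and proficient for Rag2, and the 3 receptors recognise the same ROP7 peptide of Toxoplasma gondii bound to H-2Ld. By the series description, affinity for the peptide was highest in R7-I, intermediate in R7-III and lowest in R7-II, whereas self-reactivity was highest in R7-III and lowest in R7-II. Splenocytes of all 3 lines were cultured overnight with ROP7 peptide and IL-2, and live CD3+ CD8+ cells that bound the ROP7 tetramer were sorted for RNA. Every library used here was therefore peptide-activated, and each clone stands for 1 receptor, so that affinity, self-reactivity and line cannot be told apart.

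In a T cell, receptor signalling empties the calcium store of the endoplasmic reticulum through inositol trisphosphate receptors. STIM proteins sense the emptied store and open ORAI channels in the plasma membrane, a process called store-operated calcium entry. The raised calcium, bound to calmodulin, activates the phosphatase calcineurin, which dephosphorylates NFAT proteins so that they enter the nucleus and act on cytokine and receptor genes, often beside AP-1. These steps are controlled mostly by protein modification and location, which transcript levels do not show.

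The table gives one value per gene, so isoforms and alternative starts cannot be separated. This matters for Rcan1 (chr16:92391951-92466169, GRCm38.p6, minus strand), which is known to have an internal start that calcineurin and NFAT induce. The 250 bases before the annotated starts are shown for Rcan1 because its starts differ in this respect, and for Stim1 and Nfatc3 because these members differed most between the clones. The sequences are from a RefSeq table on GRCm38.p6, read 5′ to 3′ on the strand of the gene, and capitals mark the NFAT core GGAAA or the AP-1 motif TGANTCA on either strand (GGAAA on the other strand reads TTTCC).
Rcan1 upstream start, chr16:92466170-92466419, minus strand: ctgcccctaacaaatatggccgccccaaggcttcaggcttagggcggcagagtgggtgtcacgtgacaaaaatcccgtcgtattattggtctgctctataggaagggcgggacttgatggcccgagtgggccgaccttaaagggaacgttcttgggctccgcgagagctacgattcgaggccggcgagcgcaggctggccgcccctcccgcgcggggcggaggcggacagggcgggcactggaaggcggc
Rcan1 internal start, chr16:92400079-92400328, minus strand: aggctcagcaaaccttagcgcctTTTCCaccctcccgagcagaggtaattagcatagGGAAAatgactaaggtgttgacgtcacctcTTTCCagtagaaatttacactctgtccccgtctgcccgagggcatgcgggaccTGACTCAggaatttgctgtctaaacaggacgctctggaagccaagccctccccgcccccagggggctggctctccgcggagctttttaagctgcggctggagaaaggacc
Nfatc3 first listed start, chr8:106058568-106058817, plus strand: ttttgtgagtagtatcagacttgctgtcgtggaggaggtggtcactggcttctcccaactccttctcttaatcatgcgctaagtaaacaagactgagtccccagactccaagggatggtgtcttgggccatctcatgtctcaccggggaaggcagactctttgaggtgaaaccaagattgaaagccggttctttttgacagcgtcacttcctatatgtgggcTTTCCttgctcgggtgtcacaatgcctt
Stim1, chr7:102267569-102267818, plus strand: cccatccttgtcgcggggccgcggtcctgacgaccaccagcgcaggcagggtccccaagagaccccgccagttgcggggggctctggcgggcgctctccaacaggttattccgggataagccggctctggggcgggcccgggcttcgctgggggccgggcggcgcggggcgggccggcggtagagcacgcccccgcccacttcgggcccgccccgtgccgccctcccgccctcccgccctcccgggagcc
The window before the internal Rcan1 start held 3 GGAAA cores and 1 TGANTCA motif, and the window before the upstream start held 0 of either. The windows of Ppp3cb and of the first listed Nfatc2 start, not shown, also held 3 GGAAA cores each, without TGANTCA. At least 3 GGAAA cores were present in 6.39% of the 32851 windows of this length in the table, at least 1 TGANTCA in 6.75%, and both in 0.457%. The window of the first listed Nfatc3 start held 1 GGAAA core, as at least 1 was present in 55.6% of all windows, and the Stim1 window held 0. The window of the second listed Nfatc3 start, not shown, held 0 of either motif. The Stim1 window precedes the start of one annotated transcript, and the gene itself (chr7:102261514-102437319) is annotated from further upstream. Windows were read for 7 of the 9 members, without Nfatc1 and Ppp3ca. These matches describe the letters of the windows and say nothing of binding.

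The R7-II libraries stood apart from the others before any member is considered. Of the 11330 genes, 56.1% differed between R7-II and R7-I at an adjusted p under 0.01 (limma on log2(TPM + 1), Benjamini-Hochberg over all genes), 53.6% differed between R7-II and R7-III, and only 8.41% in R7-III against R7-I. The median log2 difference over all genes was 0.17, 0.12 and 0.04 in these comparisons. When libraries were instead scaled by the median of ratios, which brings these medians close to 0, the share of all genes called higher in R7-II against R7-I went from 40.6% to 25.2% and the share called lower from 15.5% to 29.4%. Against R7-III the share called higher went from 35.6% to 25.0% and the share called lower from 18.0% to 28.2%. Values on the median-of-ratios scale are therefore given below for most members and most gene counts in the comparisons with R7-II. Other single genes, and R7-III against R7-I, are mostly given on TPM as deposited only. Markers of the sorted cell type were abundant in every library, and the summed level of 6 CD8 T cell genes (Cd3d, Cd3e, Cd3g, Cd8a, Cd8b1 and Lck) was 1770 to 1800 TPM in R7-I, 2600 to 2630 in R7-II and 1940 to 2000 in R7-III. Markers of other cells were also higher in R7-II. The sum of 8 B cell markers was 34.2 to 71.2 TPM in R7-II, against 8.14 to 15.2 in R7-I and 4.92 to 7.40 in R7-III, with all R7-II libraries above the other 6 for 8 of 8 genes. The sum of 5 MHC class II genes was 101 to 168 TPM in R7-II against 19.6 to 44.1 elsewhere, and that of 8 myeloid markers 23.5 to 78.8 against 4.51 to 6.75. The CD4 T cell markers summed to at most 2.94 TPM and the NK cell markers to at most 0.17 TPM in any library, with Klra8 listed at 0 throughout. In bulk RNA, fewer cells of a type and less RNA per cell cannot be told apart, and the part of other cells in the values below was not tested.

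Among the NFAT genes, Nfatc1, the family member that antigen receptor signalling itself induces, was the most abundant, at the 89.6th percentile of all genes tested by mean TPM. Its level was 128, 127 and 136 TPM in the R7-I libraries, 158, 156 and 145 in R7-II, and 136, 139 and 143 in R7-III. All R7-II libraries lay above the other 6, with the third R7-II library close to the highest R7-III library. The log2 difference was 0.22 (SE 0.0411) between R7-II and R7-I with an adjusted p of 6.38e-04, and 0.13 between R7-II and R7-III with an adjusted p of 0.0166 (limma), which missed the threshold of 0.01. On the median-of-ratios scale neither was past the threshold, at 0.04 (R7-I) and -0.0035 (R7-III).

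Nfatc3 (chr8:106058818-106130537), which is expressed in resting as well as activated T cells, showed the clearest difference of the 3 factors. It was at 51.9, 52.0 and 54.0 TPM in R7-I, 85.3, 73.4 and 77.8 in R7-II, and 57.1, 57.1 and 56.3 in R7-III. Every R7-II library was above every other library, and the lowest R7-II value exceeded the highest of the other 6 by more than the whole range within R7-I and R7-III together. The mean TPM of R7-II was 1.50 times that of R7-I and 1.39 times that of R7-III, with log2 differences of 0.57 (adjusted p = 3.57e-06, limma) and 0.46 (adjusted p = 1.66e-05, limma), each with an SE of 0.0497. With scaling by the median of ratios these were 0.39 and 0.33, both still past the threshold.

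Nfatc2 (chr2:168476410-168601657), the factor that is present before activation and acts early, was the least abundant of the NFAT genes. Its TPM values were 9.08, 8.63 and 7.97 in R7-I, 12.7, 12.6 and 11.1 in R7-II, and 9.72, 9.69 and 9.89 in R7-III. The 3 clones did not overlap, in the order R7-II, R7-III, R7-I. The log2 difference was 0.46 (SE 0.07, adjusted p = 1.89e-04, limma) between R7-II and R7-I and 0.28 (adjusted p = 0.00443, limma) between R7-II and R7-III. The second of these was the less stable, since it missed the threshold when any of 5 libraries was left out and on the median-of-ratios scale (0.16, adjusted p = 0.0635, limma). The comparisons of R7-II with R7-I and with R7-III share the R7-II libraries and are not independent of each other.

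Of the sensors, Stim1, which gates ORAI channels after store depletion, differed more between R7-II and R7-I than any other member. It was at 31.0, 28.6 and 30.2 TPM in R7-I, 51.1, 44.2 and 47.6 in R7-II, and 31.5, 34.4 and 34.6 in R7-III. The R7-II libraries were all well above the rest, and the R7-III libraries were slightly above those of R7-I. The ratio of mean TPM was 1.59 for R7-II over R7-I and 1.42 for R7-II over R7-III. The log2 differences were 0.65 (adjusted p = 5.10e-06, limma) and 0.50 (adjusted p = 3.68e-05, limma), with an SE of 0.0597. With median-of-ratios scaling they were 0.47 and 0.36, again past the threshold. Leaving out any single library gave 0.60 to 0.70 against R7-I and 0.44 to 0.55 against R7-III.

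Stim2 (chr5:53998523-54121057), the sensor that responds to smaller falls in store calcium, was at 24.4, 23.9 and 24.1 TPM in R7-I, 28.0, 24.5 and 25.3 in R7-II, and 22.2, 24.4 and 23.5 in R7-III. The R7-II libraries were the highest 3, but the lowest of them was nearly level with the highest R7-I and R7-III values. Neither comparison with R7-II passed the threshold. The log2 difference was 0.10 against R7-I (95% interval -0.03 to 0.22, adjusted p = 0.157, limma) and 0.14 against R7-III (0.02 to 0.27, adjusted p = 0.0444, limma). The sign against R7-I turned with median-of-ratios scaling (-0.08).

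Orai1 (chr5:123015074-123030452), which encodes the pore-forming subunit of the store-operated channel, was the second most abundant member. It was at 97.0, 95.0 and 108.8 TPM in R7-I, 99.6, 93.0 and 89.3 in R7-II, and 98.7, 98.0 and 101.5 in R7-III, so that the clones overlapped. The log2 difference of R7-II was -0.09 against R7-I (95% interval -0.21 to 0.03, adjusted p = 0.155, limma) and -0.08 against R7-III (-0.20 to 0.04, adjusted p = 0.203, limma). On the median-of-ratios scale Orai1 was lower in R7-II in both comparisons, by -0.28 (adjusted p = 5.44e-04, limma) and -0.21 (adjusted p = 0.00284, limma). Whether Orai1 is called lower in R7-II thus depends on the scaling, while the direction was negative on either scale.

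**Figure D1:**
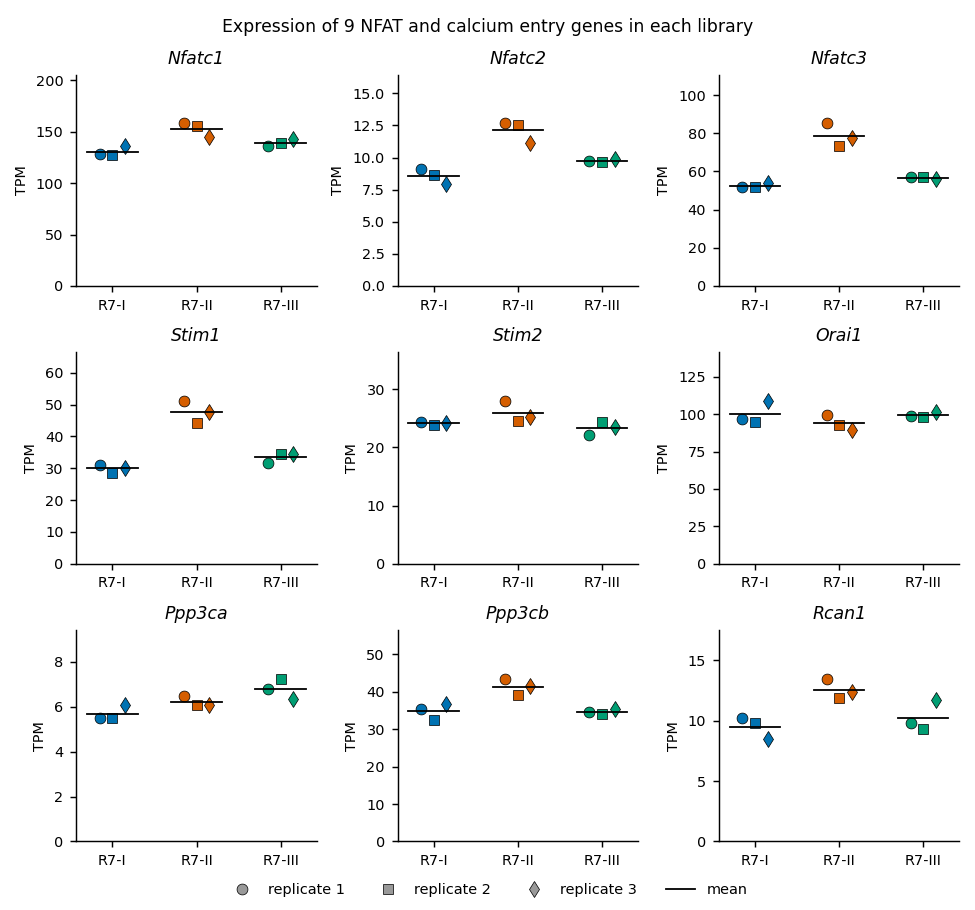
TPM of the 9 members in each of the 9 libraries, on a linear axis from 0 for each gene, with points for libraries and a line for the clone mean. The R7-II points lie above all others for Stim1 (44.2 to 51.1 against 28.6 to 34.6) and Nfatc3 (73.4 to 85.3 against 51.9 to 57.1), and overlap the others for Orai1 and Ppp3ca.

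Of the calcineurin catalytic subunits among the members, only Ppp3cb passed the threshold in the comparisons with R7-II, on TPM as deposited. Ppp3cb (chr14:20499364-20546573), the catalytic isoform on which T cells mostly depend, was at 35.3, 32.4 and 36.9 TPM in R7-I, 43.5, 39.2 and 41.5 in R7-II, and 34.6, 34.0 and 35.5 in R7-III. R7-II was the highest without overlap, and R7-I and R7-III overlapped. The log2 difference was 0.24 against R7-I (adjusted p = 0.00269, limma) and 0.25 against R7-III (adjusted p = 0.00250, limma), with an SE of 0.0552. On the median-of-ratios scale both fell short of the threshold, at 0.06 and 0.12.

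Ppp3ca (chr3:136669714-136937727), the other broadly expressed catalytic isoform, was the member with the lowest mean level. It was at 5.51, 5.51 and 6.06 TPM in R7-I, 6.46, 6.09 and 6.09 in R7-II, and 6.81, 7.24 and 6.33 in R7-III. It was the only member with its highest mean in R7-III, where 2 of the 3 libraries exceeded all R7-II libraries. The log2 difference between R7-III and R7-I was 0.22 (95% interval 0.05 to 0.38, adjusted p = 0.0662, limma), the smallest adjusted p of any member in that comparison. R7-II lay between, at 0.11 against R7-I (adjusted p = 0.216, limma) and -0.11 against R7-III (adjusted p = 0.211, limma).

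Rcan1, whose protein binds and inhibits calcineurin, was at 10.2, 9.82 and 8.50 TPM in R7-I, 13.5, 11.9 and 12.4 in R7-II, and 9.80, 9.29 and 11.7 in R7-III. R7-II was again the highest, although its lowest library and the highest R7-III library were nearly equal. The log2 difference was 0.37 against R7-I (SE 0.0941, adjusted p = 0.00500, limma) and 0.27 against R7-III (adjusted p = 0.0244, limma). The first was past the threshold by a narrow margin, and was lost when any of 4 libraries was left out, without the filter on low values and on the median-of-ratios scale (0.20, adjusted p = 0.0704, limma). Because the value covers both starts whose windows are shown above, it cannot be assigned to the start with the NFAT cores.

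Counted together, 6 of the 9 members had higher levels in R7-II than R7-I at an adjusted p under 0.01 (limma), and 0 were lower. Against R7-III, 4 were higher and 0 lower, namely Nfatc2, Nfatc3, Stim1 and Ppp3cb, and these 4 were among the 6. The share of all genes called higher was 40.6% and 35.6% in these comparisons, so that 4 of 9 against R7-III is close to the background. The median log2 difference of the members was 0.24 and 0.25, beside 0.17 and 0.12 for all genes. With scaling by the median of ratios, 3 members were higher and 1 lower against R7-I. Against R7-III, 2 were higher (Nfatc3 and Stim1) and 1 lower. On that scale 25.2% and 25.0% of all genes were called higher and 29.4% and 28.2% lower, so the higher counts were near the background. Stim1 and Nfatc3 kept their calls and directions in 19 of 19 alternative analyses of each of these comparisons. Library by library, 7 members had all R7-II values above the other 6 libraries (all but Orai1 and Ppp3ca), where 41.7% of all genes did (17.4% had all R7-II values below, 59.1% either). An exact two-sided permutation test gave p = 0.02381 for each of the 7, the smallest p that 3 against 6 libraries allow, p = 0.1429 for Orai1 and p = 1.0 for Ppp3ca. With median-of-ratios scaling only Nfatc2, Nfatc3 and Stim1 of the 7 kept p = 0.02381 in this exact test. It was 0.6905 for Nfatc1, 0.5 for Stim2 (with the sign turned), 0.119 for Ppp3cb and 0.07143 for Rcan1, whereas Orai1 (-0.25) and Ppp3ca (-0.14) reached an exact p of 0.02381 in the lower direction. The share of all genes that reach this p on that scale was not counted, so these results have no background beside them.

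**Figure D2:**
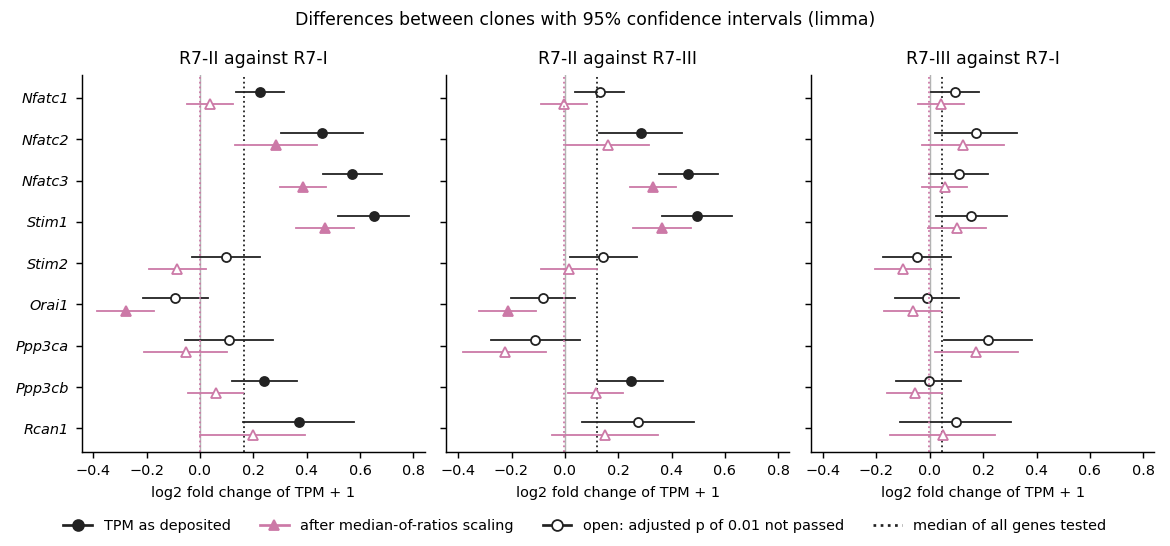
Log2 differences in TPM + 1 of the 9 members for the 3 pairs of clones with 95% intervals from limma, as deposited (circles) and after median-of-ratios scaling (triangles), open where the adjusted p was not under 0.01, with dotted lines at the medians of all genes. As deposited, Stim1 (0.65) and Nfatc3 (0.57) are the largest values for R7-II against R7-I, and no member is past the threshold for R7-III against R7-I.

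Between R7-III and R7-I, 0 of 9 members passed the threshold (limma), where 8.41% of all genes did (6.96% higher and 1.45% lower in R7-III). At an unadjusted p under 0.05 (limma), 4 members were higher in R7-III (Nfatc1, Nfatc2, Stim1 and Ppp3ca) and 0 lower. The share of all genes at that unadjusted level was not counted. Of all genes past the adjusted threshold in this comparison, 82.79% were higher in R7-III, and 56.63% with median-of-ratios scaling. The direction of the 4 members was thus also that of most genes called. The libraries of both clones did not overlap for 5 members, R7-III being the higher for Nfatc1, Nfatc2, Nfatc3, Stim1 and Ppp3ca, while 41.9% of all genes did not overlap in this comparison. The smallest p that an exact permutation test of 3 against 3 libraries can give is 0.1. Orai1 (-0.01, 95% interval -0.13 to 0.11) and Ppp3cb (-0.0045, interval -0.13 to 0.12) had the differences closest to 0.

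Ratios between genes in the same library do not depend on how libraries are scaled, and 5 such ratios were compared. The ratio of Stim1 to Stim2 was between 1.2 and 1.27 in R7-I, 1.83, 1.80 and 1.88 in R7-II, and 1.42, 1.41 and 1.47 in R7-III. The 3 clones did not overlap, and Stim1 made up 55.3% ± 0.758 (SD, n = 3) of the summed STIM level in R7-I, 64.8% ± 0.488 in R7-II and 58.9% ± 0.573 in R7-III. The log2 ratio was 0.46 higher in R7-II than in the other 6 libraries (exact permutation p = 0.02381, adjusted over the 5 ratios 0.02976). The ratio of Ppp3ca to Ppp3cb was lower in R7-II (0.147 to 0.155) than in R7-I (0.156 to 0.170) and R7-III (0.178 to 0.213), with a log2 difference of -0.25 from the other 6 and the same p values by the exact permutation test. The highest R7-II and lowest R7-I ratios were nearly equal, and R7-III differed from R7-I by as much (0.26 on the log2 scale). The ratio of Nfatc1 to Nfatc2 was 12.4 to 13.0 in R7-II, 14.2 to 17.1 in R7-I and 14.0 to 14.5 in R7-III, again with the same exact p. Nfatc1 supplied 62.7% of the summed level of the 3 NFAT genes in R7-II against 68.1% in R7-I and 67.7% in R7-III, and Nfatc3 32.3% against 27.5% and 27.6%. The ratio of Nfatc2 to Nfatc3 overlapped between clones (exact permutation p = 0.2381).

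Of the 5 ratios, that of Orai1 to Orai2 differed most. Orai2, a channel subunit known to assemble with ORAI1 and to limit the current in T cells, was at 10.4, 11.1 and 11.6 TPM in R7-I, 46.6, 38.8 and 46.9 in R7-II, and 11.8, 13.5 and 12.6 in R7-III. The R7-II mean was 4.00 times that of R7-I and 3.50 times that of R7-III, with log2 differences of 1.90 (adjusted p = 4.02e-08, limma) and 1.73 (adjusted p = 8.33e-08, limma). Orai1 was thus 9.09 ± 0.444 times as abundant as Orai2 in R7-I and 7.91 ± 0.576 times in R7-III, but 2.15 ± 0.245 times in R7-II (SD, n = 3). The log2 ratio was lower by -1.99 in R7-II (exact permutation p = 0.02381, adjusted 0.02976). Orai2 made up 28.8% of the summed ORAI level in R7-II, 8.72% in R7-I and 9.65% in R7-III.

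**Figure D3:**
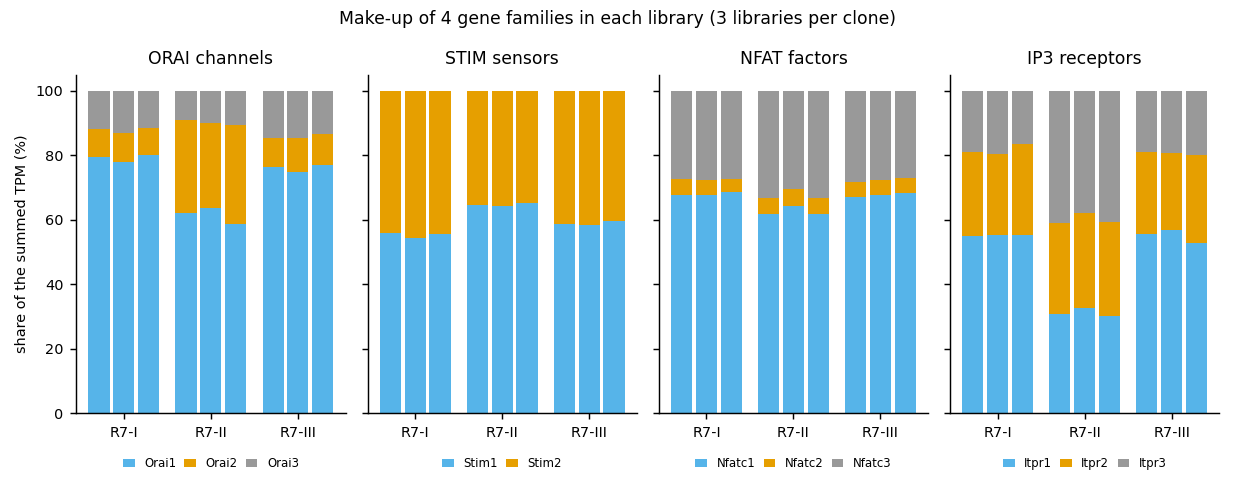
Share of each gene in the summed TPM of its family, in percent, as stacked bars from 0 to 100, 1 bar per library and 3 per clone, for the ORAI, STIM and NFAT genes and the inositol trisphosphate receptors. On average Orai2 takes 28.8% of the ORAI sum in R7-II against 8.72% and 9.65%, and Itpr3 takes 39.8% of the sum of the inositol trisphosphate receptors against 18.3% and 19.2%.

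Of 50 other genes of the pathway, 41 passed the filter. In R7-II against R7-I, 25 were higher, 6 lower and 10 not past the threshold, with a median log2 difference of 0.31, where 40.6% of all genes were higher and 15.5% lower. In R7-II against R7-III, 22 were higher, 6 lower and 13 not past it, with a median of 0.24, where 35.6% of all genes were higher and 18.0% lower. The lower genes were thus no more frequent in the list than among all genes. With median-of-ratios scaling the counts were 21 higher and 11 lower, and 20 higher and 11 lower. Of all genes, 25.2% and 25.0% were higher and 29.4% and 28.2% lower on that scale. Past the threshold in both comparisons were 22 higher and 5 lower genes. How many of all genes passed in both was not counted, and the comparisons share the R7-II libraries.

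By role, the potassium channels, which hold the membrane potential that drives calcium entry, and the TRP channels together were higher in R7-II for 4 of 4 genes in both comparisons and on both scales. Genes of NFAT kinases, scaffolds and nuclear export were higher for 7 of 10 and lower for 0 of 10 in either comparison (all genes, 40.6% and 35.6% higher, 15.5% and 18.0% lower), whereas calcineurin subunits, calmodulin and their regulators were higher for 4 and lower for 3 of 10. With median-of-ratios scaling the kinase, scaffold and export genes were 6 higher and 2 lower against R7-I and 6 higher and 1 lower against R7-III. The calcineurin and calmodulin genes were then 2 higher and 6 lower, and 3 higher and 5 lower. All genes on that scale were 25.2% and 25.0% higher and 29.4% and 28.2% lower. Itpr3, a store-release receptor, was at 4.26, 4.57 and 3.82 TPM in R7-I, 18.6, 14.2 and 17.9 in R7-II, and 4.89, 5.02 and 5.04 in R7-III, a log2 difference of 1.77 against R7-I and 1.57 against R7-III. Its relative Itpr2 was also higher in R7-II (0.90 and 0.79). Itpr1, with R7-II values of 12.3 to 14.0 TPM beside 12.4 to 12.9 in R7-I and 13.5 to 15.0 in R7-III, was not past the threshold in either comparison, although on the median-of-ratios scale it was lower than in R7-III (-0.23, adjusted p = 0.00452, limma). In the family sum, Itpr1 was the leading receptor of the family in R7-I and R7-III, at 55.2% of the sum in each, and Itpr3 the leading one in R7-II.

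Further pathway genes with large positive differences in both comparisons were Efcab4b, the older symbol of the ORAI regulator Cracr2a, and the kinase gene Dyrk1b. Efcab4b was at 3.95 to 5.41 TPM in R7-I, 3.55 to 4.42 in R7-III and 8.65 to 12.8 in R7-II, with log2 differences of 1.10 and 1.22. Dyrk1b was at 1.53 to 2.85, 1.94 to 2.88 and 4.44 to 7.26 TPM, with log2 differences of 1.15 and 1.07. Among the lower genes were Atp2a2, the calcium pump that refills the store, Mcu, the pore of the mitochondrial uniporter, and the immunophilin genes Fkbp1a and Ppia. Atp2a2 was at 213 to 226 TPM in R7-I, 200 to 219 in R7-III and 155 to 161 in R7-II, with log2 differences of -0.48 and -0.39. Mcu was lower by -0.44 and -0.36, Fkbp1a by -0.35 and -0.33, and Ppia by -0.15 in each, all past the threshold of adjusted p under 0.01 (limma). The call of Ppia was lost in 4 of 19 alternatives in each comparison, among them 1 left-out library (R7-I replicate 3 and R7-III replicate 1). The B cell, MHC class II and myeloid marker sums given above were higher in the same R7-II libraries, and their part in these differences was not tested.

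**Figure D4:**
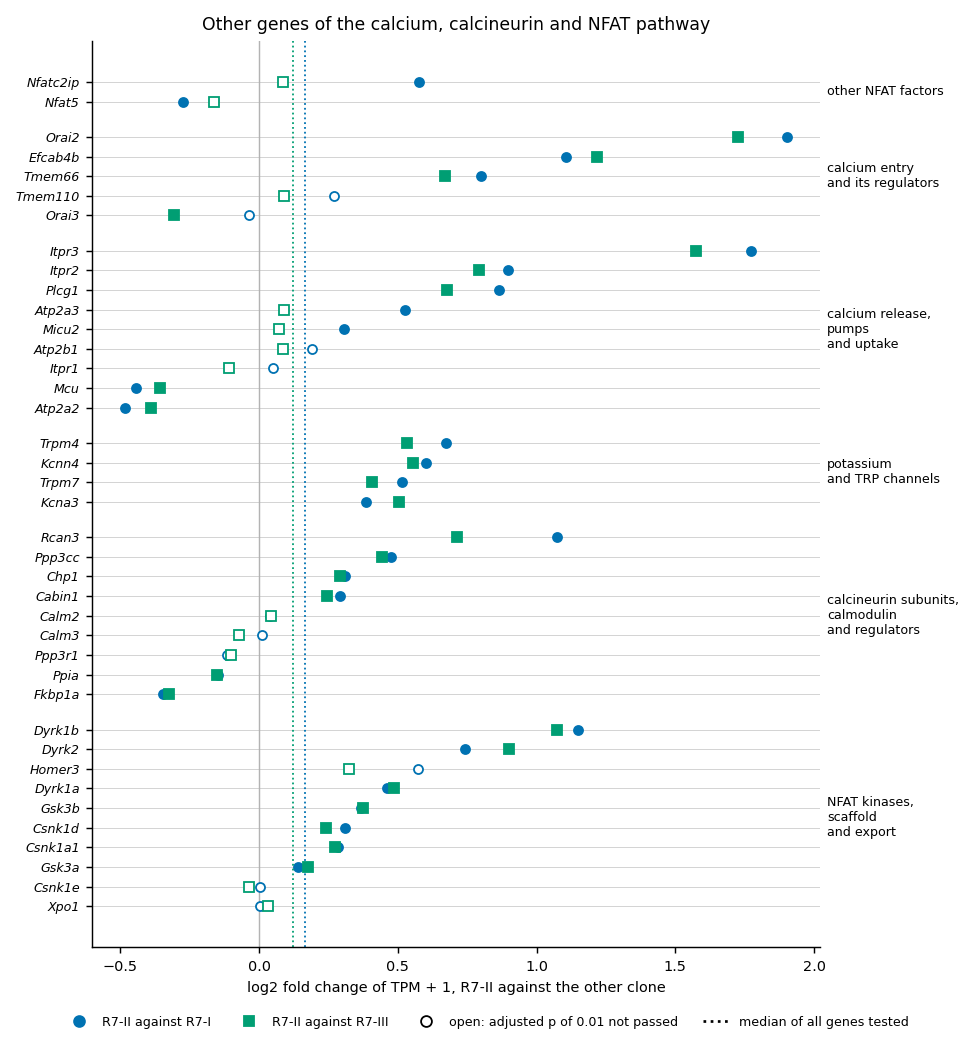
Log2 difference in TPM + 1 of the other pathway genes tested that are reported here, grouped by role, for R7-II against R7-I (circles) and against R7-III (squares), with open symbols where the adjusted p was not under 0.01 and dotted lines at the medians of all genes. Orai2 (1.90 and 1.73) and Itpr3 (1.77 and 1.57) lie farthest to the higher side and Atp2a2 (-0.48 and -0.39) and Mcu to the lower side.

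Comparing R7-III with R7-I, 4 of the 41 other pathway genes were higher and 0 lower, which is near the share of all genes called higher (6.96%). Nfatc2ip, which encodes an NFAT-interacting protein, was at 7.59 to 7.84 TPM in R7-I and 10.8 to 12.1 in R7-III (log2 difference 0.49, adjusted p = 0.00116, limma). Atp2a3, the store pump typical of blood cells, was at 36.3 to 40.1 and 49.0 to 54.7 TPM (0.44, adjusted p = 0.00125, limma). Micu2, a regulator of mitochondrial calcium uptake that was named after its values were seen, had means of 36.9 ± 1.67 and 43.5 ± 1.34 TPM (SD, n = 3), and its call was lost when any of 7 libraries was left out.

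Genes known as targets of NFAT were more often lower than higher in R7-II. Of 28 known NFAT targets, 27 were tested, of which 6 were higher and 15 lower in R7-II against R7-I (median log2 difference -0.43), and 5 higher and 16 lower than in R7-III (median -0.46). The share of all genes called lower was 15.5% and 18.0% in these comparisons. With median-of-ratios scaling 3 were higher and 18 lower against R7-I, and 5 higher and 18 lower against R7-III. The share of all genes called lower was 29.4% and 28.2% on that scale, and the share called higher 25.2% and 25.0%. In both comparisons 13 targets were lower and 5 higher. The share of all genes called in both was not counted, and the comparisons share the R7-II libraries.

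The cytokine and chemokine targets were lower in R7-II for 8 of 8 genes against R7-I and 7 of 8 against R7-III (8 of 8 with median-of-ratios scaling). Of all genes, 15.5% and 18.0% were lower in these comparisons, and 29.4% and 28.2% with that scaling. Il2, the T cell growth factor, was at 145, 147 and 167 TPM in R7-I, 35.8, 58.1 and 52.3 in R7-II, and 186, 176 and 226 in R7-III, with log2 differences of -1.66 and -2.01 (adjusted p = 5.19e-06 and 1.37e-06, limma). Ifng was at 133 to 160 TPM in R7-I, 25.2 to 47.5 in R7-II and 117 to 128 in R7-III (-2.04 and -1.75). Il3 was at 11.7 to 12.8, 0.12 to 0.41 and 20.1 to 21.0 TPM (-3.42 and -4.11), values that the added 1 TPM pulls towards 0 for R7-II. Ccl3 was at 1366 to 1518, 402 to 417 and 1033 to 1210 TPM (-1.81 and -1.41). Each of these genes had all R7-II libraries below the other 6, as 17.4% of all genes did. They were named for their large differences in both comparisons, so this separation follows from the choice and adds no support.

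Of the 9 surface ligands and receptors among the targets, 1 was higher and 5 lower in R7-II against R7-I, and 1 was higher and 7 lower against R7-III, so that most receptors of the list, inhibitory ones included, were on the lower side. The higher one was Ctla4, an inhibitory receptor, at 12.1, 10.3 and 13.3 TPM in R7-I, 61.5, 60.3 and 66.1 in R7-II, and 12.9, 12.1 and 15.2 in R7-III, with log2 differences of 2.31 and 2.15. Dgka, a diacylglycerol kinase linked to anergy, was at 64.9 to 76.5 TPM in R7-I, 268 to 318 in R7-II and 89.3 to 91.9 in R7-III (2.06 and 1.70). Ndrg1, also linked to anergy, was at 8.24 to 10.7, 32.8 to 50.2 and 10.8 to 11.2 TPM (1.95 and 1.79). Nr4a1, which encodes Nur77, was at 219 to 260, 285 to 348 and 222 to 231 TPM (0.36 and 0.48), and its call against R7-I was lost with median-of-ratios scaling (0.17, adjusted p = 0.0423, limma). The 6 transcription factors among the targets were mixed, with 2 higher and 2 lower against R7-I and 1 higher and 2 lower against R7-III. With median-of-ratios scaling they were 0 higher and 3 lower, and 1 higher and 3 lower. Of the 4 anergy-linked genes tested, 3 were higher in R7-II and 0 lower in both comparisons, but with median-of-ratios scaling 2 were higher and 1 lower against R7-I. Of all genes as deposited, 40.6% and 35.6% were higher and 15.5% and 18.0% lower in R7-II. Between R7-III and R7-I, 4 targets were higher and 3 lower (all genes, 6.96% and 1.45%), with Il3 (0.68) and Dgka (0.36) among the higher and Ccl3 (-0.39) among the lower.

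**Figure D5:**
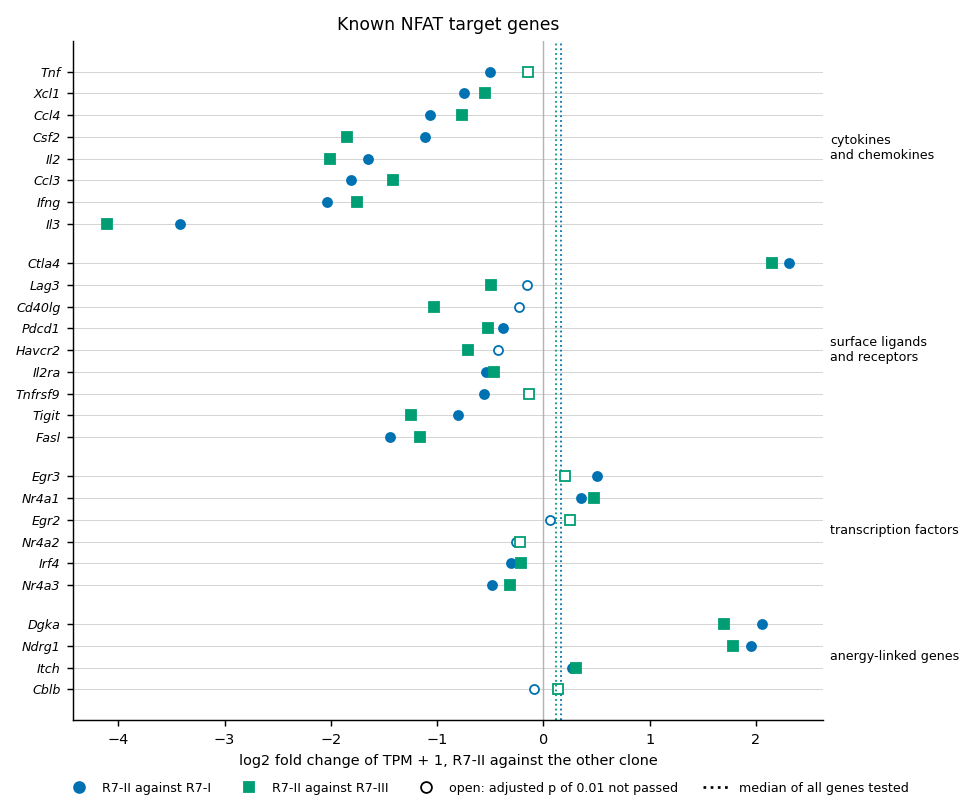
Log2 difference in TPM + 1 of the 27 NFAT targets tested, grouped by kind, for R7-II against R7-I (circles) and against R7-III (squares), with open symbols where the adjusted p was not under 0.01 and dotted lines at the medians of all genes. Il3, Ifng, Il2 and Ccl3 lie between -1.41 and -4.11, and Ctla4, Dgka, Ndrg1 and Nr4a1 between 0.36 and 2.31.

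Over the 9 libraries Stim1 and Nfatc3 had the highest Pearson correlation of any pair of members on the log2 scale (r = 0.984), and Orai1 had negative values with 7 of the other 8 members. Within R7-II, libraries 1, 3 and 2 held Stim1, Nfatc3, Stim2, Ppp3cb and Rcan1 in the same descending order. It was also the order of the B cell marker sum (71.2, 54.4 and 34.2 TPM) and of the median-of-ratios scaling factors (1.11, 1.08 and 1.05). The cause of this order was not tested. Nfatc1 and Nfatc2 were in the order 1, 2, 3 and the myeloid marker sum in the order 3, 1, 2. The 5 genes most like Stim1, among 8838 with a mean of at least 5 TPM, were Mbd6 (r = 0.995), Wdr37 (0.994), Ralgps2 (0.994), Med15 (0.994) and Scai (0.993). These correlations are descriptions over libraries that share the clone differences, and carry no test.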

How the data were processed

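Spleen cells of the 3 mouse lines were kept overnight in ROP7 peptide (10 µM) and IL-2 (10 ng/ml), and sorted CD8 T cells gave poly-A libraries that were sequenced as single-end reads without strand information. The authors deposited 1 table of TPM for 24060 genes, aligned and quantified with RSEM 1.2.11 on RefSeq genes of mm10. TPM keeps no depth, so the depth of each library is unknown here, and genes with near-identical copies may share reads. The submitters' notes also name DESeq2 1.8.1, which needs counts and played no part here. Each of the 9 columns was assigned to its library by name, with 0 left over, and no unstimulated sample was analysed here.

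Genes with a maximum TPM above 1 were tested on log2(TPM + 1) with limma 3.58.1 in R 4.3.3 (trend in the prior variance, 9 libraries in 1 fit, Benjamini-Hochberg over 11330 genes, two-sided, threshold 0.01, as the study's false discovery rate). The script was tested on simulated data. Fold changes on this scale understate low genes. Exact two-sided permutation tests used scipy 1.17.1. P-values measure the spread between these libraries. The members and gene lists were chosen with earlier results of these data known. Named genes were all members; the 5 other pathway genes in each direction, and the 4 NFAT targets in each direction, with the largest smaller absolute log2 difference among those past the threshold in both R7-II comparisons; the 3 pathway genes called between R7-I and R7-III with the largest difference; and the 5 genes most correlated with the member that differed most. Some genes that meet these rules are counted but not reported by name. Genes outside these rules (Itpr1 and Micu2) were named after their values were seen. Alternatives were pseudocounts of 0.1 and 5, 2 other filters, 2 other scalings, no variance trend, fits of 2 clones only, a threshold of 0.05, a replicate block and leaving out each library.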

Additional observations from a re-analysis of the deposited data

How the results depend on the processing

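Stim1 and Nfatc3 stayed past the threshold and higher in R7-II in 19 of 19 alternatives in both comparisons. The count of the 9 members past the threshold was 6 for R7-II against R7-I and 3 with quantile normalization, with 4 to 6 when a library was left out. Of the 11330 genes, 6358 were past it, and 5576 with quantile normalization. For R7-II against R7-III the member count was 4, with 7 at a threshold of 0.05 and 2 to 5 when a library was left out. Of all genes, 6077 were called there, and 7571 at 0.05. The lowest member count of 2 came without R7-II replicate 1 and without R7-III replicate 2, where 5380 and 5120 of all genes were called. For R7-III against R7-I the member count stayed at 0 in every alternative run. The 4 other pathway genes that differed between R7-III and R7-I were 2 with quantile normalization and 2 to 4 when a library was left out. The 7 NFAT targets of that comparison were 4 without the filter on low values, 2 with quantile normalization, 4 without the variance trend, 12 at a threshold of 0.05 and 3 to 8 when a library was left out. Without a single library the log2 ratio of Stim1 to Stim2 in R7-II minus the rest was 0.43 to 0.49, that of Ppp3ca to Ppp3cb -0.29 to -0.20, that of Nfatc1 to Nfatc2 -0.25 to -0.19 and that of Orai1 to Orai2 -2.07 to -1.90. The adjusted exact p of these ratios missed 0.05 when an R7-II library was left out, since 2 against 6 libraries cannot reach it after adjustment.

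Signs turned where values were near 0. With median-of-ratios scaling Nfatc1 in R7-II against R7-III was -0.0035, and in R7-II against R7-I Stim2 was -0.085 and Ppp3ca -0.052. With quantile normalization R7-II differed from R7-I by -0.14 in Stim2, -0.23 in Ppp3ca and 0.0015 in Ppia, and from R7-III by -0.029 in Stim2, and Rcan1 was -0.0093 for R7-III against R7-I. Between R7-I and R7-III, with a library left out, Orai1 ranged from -0.047 to 0.049 (positive only without R7-I replicate 3) and Ppp3cb from -0.055 to 0.036 (0.036 without the same library, 0.0053 without R7-I replicate 1, and 0.0099 where R7-III replicate 2 was dropped). The cause of these changes was not tested. Over all genes, the 953 calls between R7-III and R7-I became 2142 at a threshold of 0.05, and at the lowest 422 without R7-I replicate 1. Same-numbered libraries did not deviate together (correlations of -0.0449 to 0.0888 in 9 pairs, and 1 of 9 libraries closest to its own number). No pairing by number was thus seen, which does not show that same-numbered samples were handled apart. With a replicate block the members past the threshold were 6, 4 and 0 in the 3 comparisons, and all genes 6015, 5786 and 733.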
